A study of Mus musculus with 12 samples.

Results

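The comparison described here set retinal ganglion cells (RGCs) of newborn mice with a conditional deletion of Ezh2 against RGCs of wild type pups, gene by gene. Of 38720 genes listed in the deposited table for these cells, 26516 had a read in any of the RGC libraries, and 16085 reached a mean of 10 normalized reads in either genotype and are the genes compared. The gene just inside that limit had a larger mean of 10.01 (Gm15385), and the gene just outside it had 9.99 (Adcy4). The knockout, called mKO, carried Math5Cre+ with Ezh2f/f, so that Cre, driven from the Math5 (Atoh7) locus, removed a floxed stretch of Ezh2 in cells that turn on Math5. The controls are labelled wild type, the study names littermates carrying the floxed Ezh2 alleles as its usual controls, and both genotypes were on a C57/BL6 background at postnatal day 0. Retinas were dissociated with papain, RGCs were held back on magnetic beads carrying an antibody to Thy-1 (CD90), and the unbound cells were kept as non-RGCs. Each genotype and fraction had 3 libraries of poly-adenylated RNA, 12 libraries in all. Math5-Cre acts in only part of the RGCs, so the mKO fraction could hold cells with intact Ezh2, and the labels do not say whether the retinas of several pups were pooled.

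Ezh2 is the main methyltransferase of Polycomb repressive complex 2 (PRC2), which puts methyl groups on lysine 27 of histone H3 (H3K27) and keeps developmental regulators of other lineages silent. Eed and Suz12 hold the enzyme together and Ezh1 is its weaker paralog, while Polycomb repressive complex 1 (PRC1) reads the mark. RGCs are the projection neurons of the retina: they arise first from Math5-positive progenitors, turn on Pou4f, Isl1, Ebf and Irx transcription factors, and at birth are sending axons to the brain.

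The loxP sites flank exons 16 to 19 of the 20 exons of Ezh2 (chromosome 6, minus strand, GRCm38), which encode the catalytic SET domain. They are shown because they are the bases that recombination removes, as genomic sequence in the direction of the gene.
Ezh2 exon 16, chr6:47533742-47533837: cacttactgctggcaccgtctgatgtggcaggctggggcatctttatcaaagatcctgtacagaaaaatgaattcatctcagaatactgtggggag
Ezh2 exon 17, chr6:47532902-47532983: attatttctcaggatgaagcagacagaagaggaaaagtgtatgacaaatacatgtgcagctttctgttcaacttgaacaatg
Ezh2 exon 18, chr6:47531985-47532065: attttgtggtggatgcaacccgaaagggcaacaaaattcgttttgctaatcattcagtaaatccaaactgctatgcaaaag
Ezh2 exon 19, chr6:47531741-47531825: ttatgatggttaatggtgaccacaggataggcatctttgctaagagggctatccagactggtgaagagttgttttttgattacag
The exons are 96, 82, 81 and 85 bases long, and their GC content ranged from 36.6% in exon 17 to 46.9% in exon 16. The table counts reads per gene and not per exon, so the loss of these exons cannot be seen in it. Ezh2 had 1354, 1476 and 1443 normalized reads in the mKO RGC libraries against 1190, 1206 and 1678 in WT. The mKO values lay within the WT range, and the difference, 0.09 ± 0.13 (log2, SE, n = 3 per genotype), did not pass the test (adjusted p = 0.637). WT C was the highest WT library, and without it Ezh2 was higher in mKO by 0.25 (adjusted p = 0.00416), under the fold of 1.5 used below.

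Values in this text are normalized reads, that is, reads divided by the size factor the study gave each library. A difference is mKO minus WT on the scale log2(normalized reads + 1), which understates the change of low genes. A gene was called when limma's moderated test over the 6 RGC libraries gave a Benjamini-Hochberg adjusted p under 0.05 and the fold was at least 1.5. The libraries, lettered A to C from the deepest to the shallowest, held 10600964 to 13014004 reads on genes. Samples of one group were separate RNA extractions, so the p-values measure the spread among extractions of cells, whose animals are not identified. By this rule 1272 genes were higher in mKO RGCs (7.91% of those tested) and 886 were lower (5.51%). The counts of calls in the lists below are to be read beside these shares. At the adjusted p with any fold, 16.3% of the genes tested were higher and 21.2% lower. Counts with any fold are to be read beside those.

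Base composition and 1 library moved with these calls. Median exon GC content was 42.1% for the called rises and 57.9% for the called falls, so a companion fit removed from each library its trends with exon GC content and with read density. There, of 15826 genes with a known GC content, 109 were higher (0.689%) and 135 lower (0.853%), and the 2 fits shared 101 rises and 74 falls. WT library C stood apart from the other WT libraries, with an SD of log2 differences over genes of 0.45 and 0.53 from WT A and WT B, against 0.20 to 0.27 for every other pair of one genotype. It also held the highest sum of progenitor markers. Without WT C, 1494 genes were higher (9.29%) and 927 lower (5.76%). The part of base composition and of WT C in the results below was not tested beyond these fits. Of 123 called genes in the lists below, 79 kept the call whichever library was left out. Most, but not all, of the other 44 are named after the lists. Where a list had no called rise, 0 to 2 of its members were above WT at an unadjusted p under 0.05 with any fold, except for 6 among regulators of apoptosis. Where a list had no called fall, 0 to 2 were below WT, except for 7 genes of the mitochondrial genome and 4 of microglia.

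Among 13 genes for the machinery of H3K27 methylation, Mtf2 rose, Phf1 and Kdm6b fell, and 10 were not called. These calls stand beside 7.91% of all genes called higher and 5.51% called lower. The list's median difference was 0.06, against -0.002 over all genes tested. It was -0.07 with the trends removed and -0.03 without WT C. Mtf2, a Polycomb-like subunit that brings PRC2 to chromatin, had 1297, 1246 and 1361 normalized reads in mKO against 771, 772 and 889 in WT. Every mKO library was above every WT library (0.68 ± 0.08, adjusted p = 0.000973). Phf1, another Polycomb-like subunit, had 582, 660.2 and 664 in mKO against 1022, 963 and 935 in WT, again with no overlap (-0.62, adjusted p = 0.00133). Kdm6b, a demethylase of H3K27, went from 3218, 3256 and 3108 in WT to 1993, 1989 and 2188 in mKO (-0.64, adjusted p = 0.000657). None of the 13 members was called with the trends removed in limma, also at an unadjusted p under 0.05 with the fold, where the differences of these 3 genes were 0.37, -0.20 and -0.12.

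None of the core subunits reached the fold of 1.5. Ezh1 had 933, 966 and 964 normalized reads in mKO against 1001, 949 and 801 in WT (0.06, adjusted p = 0.603), and the genotypes overlapped. Eed differed by 0.07 (adjusted p = 0.741), Suz12 by 0.22 (adjusted p = 0.132), Jarid2 by -0.12 (adjusted p = 0.228) and Aebp2 by 0.14 (adjusted p = 0.15), all with overlapping libraries. Without WT C, 4 of these passed the adjusted p under that fold, Eed at 0.23 (adjusted p = 0.0357), Suz12 at 0.34 (adjusted p = 0.000568), Aebp2 at 0.19 (adjusted p = 0.013) and Jarid2 at -0.17 (adjusted p = 0.049995). The histone-binding subunits Rbbp4 (-0.31, adjusted p = 0.0353) and Rbbp7 (-0.25, adjusted p = 0.0397) passed the adjusted p without reaching the fold. Kdm6a, the X-linked H3K27 demethylase, did the same in the other direction (0.47, adjusted p = 0.00356), and Phf19 differed by -0.32 with wide overlap (adjusted p = 0.362).

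Among 20 PRC1 genes, Phc2, a polyhomeotic subunit, was the single call and was lower in mKO RGCs. It had 1464, 1494 and 1453 normalized reads in mKO against 1992, 1978 and 2761 in WT, whose library C was the highest (-0.59, adjusted p = 0.011), and without WT C it was -0.43, under the fold of 1.5. The list's median was -0.25, moving to -0.02 with the trends removed, where limma called 0 members, also at an unadjusted p under 0.05. With any fold, 8 members passed the adjusted p on the lower side and 2 on the higher side, beside 21.2% and 16.3% of all genes. The lower ones included Kdm2b, which brings a PRC1 variant to CpG islands, with 1260, 1296 and 1356 in mKO against 1767, 1682 and 1674 in WT (-0.39, adjusted p = 0.00216).

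No developmental regulator of the kind that Polycomb keeps silent in most tissues was called higher in mKO RGCs. Of 72 such genes, mainly Hox genes and regulators of mesoderm and endoderm, 71 were in the table. Of these, 43 stayed at or below 3 reads in each of the 6 libraries, including 19 with no read in any of them, and 14 reached the level for testing. A count of 0 in a library of this depth leaves room for up to 3 reads. None of the 14 rose in limma, at the adjusted p or at an unadjusted p under 0.05, and 2 fell. Six2, a homeobox regulator of kidney progenitors, had 42.8, 37.8 and 32.9 normalized reads in mKO against 72.0, 87.9 and 99.2 in WT (-1.17, adjusted p = 0.00487). Pax7, a regulator of muscle and neural crest cells, had 18.3, 11.99 and 13.2 against 32.4, 48.9 and 24.5 (-1.19, adjusted p = 0.0266). In both genes every mKO library was below every WT library, and neither was called with the trends removed (-0.76, adjusted p = 0.0729, and -1.10, adjusted p = 0.0601). The median over the 14 was -0.24, and -0.28 with the trends removed, but it was -0.84 without WT C, where the same number of members was called. Cdkn2a, a classic Polycomb target that restrains the cell cycle, was at 6.11, 3.69 and 6.59 in mKO against 8.11, 13.03 and 23.3 in WT (-1.21, adjusted p = 0.0693).

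Among the lists of chromatin genes and Polycomb targets, Adnp showed the largest difference, a fall. This homeobox and zinc finger protein joins the remodeller Chd4 and the HP1 proteins in a repressive complex. Adnp had 199.8, 173 and 207 normalized reads in mKO RGCs against 643, 719.8 and 701 in WT, a wide gap with no overlap. The difference was -1.83 ± 0.10 (adjusted p = 0.000644) and stayed at -1.95 with the trends removed (adjusted p = 0.00332). In the non-RGC fraction it was -2.46 (adjusted p = 0.00855).

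Of 14 genes for the Adnp complex and HP1 heterochromatin, 3 fell and none rose. Ehmt2, a methyltransferase of H3K9, had 2276, 2458 and 2438 normalized reads in mKO against 3861, 3716 and 4108 in WT (-0.70, adjusted p = 0.000651). Trim28, a corepressor that brings in HP1, had 2577, 2668 and 2671 against 4020, 4017 and 4666 (-0.68, adjusted p = 0.000876). Both differences shrank with the trends removed, to -0.10 and -0.12, and were not called there. Cbx3, which encodes HP1 gamma, had 279, 262 and 287 in mKO against 387, 363 and 421 in WT. Its difference of -0.50 passed the adjusted p (0.00629) without the fold and became a call with the trends removed (-0.90, adjusted p = 0.00726).

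Transcription factors of RGCs divided into a few rises and more falls. Of 40 tested, Onecut2, Foxp2 and Ebf2 rose and 9 fell, namely Pou4f1, Ebf4, Sox4, Sox12, Irx1, Irx3, Irx4, Irx5 and Barhl2. Over all genes tested, 7.91% rose and 5.51% fell. The list's median was -0.26, and 0.04 with the trends removed. Onecut2, a cut-homeodomain factor used in the making of RGCs and horizontal cells, had 1219, 1181 and 1548 normalized reads in mKO against 522, 529.8 and 364 in WT. The genotypes were far apart (1.49 ± 0.17, adjusted p = 0.00105), and this rise was also called with the trends removed (1.08, adjusted p = 0.0234).

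Foxp2, a forkhead factor that marks a subset of RGCs, had 1256, 1272 and 1331 in mKO against 725, 712 and 558 in WT (0.96, adjusted p = 0.000958), and 0.41 with the trends removed (adjusted p = 0.0729). Ebf2, a helix-loop-helix factor of differentiating RGCs, had 427, 362 and 350.1 against 291, 277 and 167 (0.67, adjusted p = 0.0478), with WT C the lowest, and it was 0.41 without WT C. Without WT C, 2 rises and 10 falls were called in this list.

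POU and Sox factors were among the falls. Pou4f1 (Brn3a), a POU factor that keeps RGCs differentiated, had 2581, 2754 and 2777 normalized reads in mKO against 4178, 4334 and 4067 in WT (-0.63 ± 0.05, adjusted p = 0.000651). Sox4, a factor RGCs need for their formation, had 1961, 2103 and 2092 against 3179, 3306 and 3642 (-0.72, adjusted p = 0.000674). Its relative Sox12 had 1903, 2008 and 1954 against 3282, 3155 and 3282 (-0.73, adjusted p = 0.000644). In all 3 genes the libraries did not overlap. With the trends removed Pou4f1 was at -0.26, Sox4 at -0.33 and Sox12 at -0.13, and none of them was called.

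Of the 6 Iroquois genes of the list, 4 were called lower. Irx1 had 248, 229.6 and 209.9 normalized reads in mKO against 552, 474 and 349 in WT (-0.98, adjusted p = 0.00509). Irx5 had 1038, 1146 and 1082 against 1697, 1736 and 1727 (-0.66, adjusted p = 0.000651). Irx3 and Irx4 were at -0.59 each, and Irx2 (-0.32, adjusted p = 0.0661) and Irx6 (-0.35, adjusted p = 0.00921) lay in the same direction below the fold. None of these Iroquois genes kept a call with the trends removed, where Irx1 was -0.50 (adjusted p = 0.148), Irx3 was -0.04 and Irx4 was 0.03.

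Other factors that define early RGCs were not called as normalized by the authors. Atoh7, which opens the RGC program and carries the Cre allele, had 54.1, 89.4 and 50.8 normalized reads in mKO against 81.1, 84.7 and 293 in WT, where library C alone was high (-1.0004, adjusted p = 0.164, and -0.40 without it). Isl1, a LIM-homeodomain factor of RGCs, had 1653, 1719 and 1815 against 1934, 1822 and 1591 (-0.04, adjusted p = 0.728). Sox11 passed the adjusted p without the fold (-0.54, adjusted p = 0.00281) and was called lower with the trends removed (-0.63, adjusted p = 0.0138).

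Cytoskeletal and surface genes of RGCs were almost uniformly lower in mKO by a small amount. Of 26 tested, 7 were called lower, namely Rbpms2, Thy1, Stmn3, Tubb3, Uchl1, Dpysl3 and Crmp1, and none was called higher. With any fold, 21 of the 26 passed the adjusted p on the lower side, beside 21.2% of all genes, and in 21 every mKO library was below every WT library, beside 28.2% of all genes. At an adjusted p under 0.05 with any fold, Elavl4, an RNA-binding protein of neurons, was the single rise (0.23). The median was -0.47.

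Stmn3, a microtubule-destabilising stathmin, had 944, 984 and 969 normalized reads in mKO against 1585, 1599 and 1690 in WT (-0.75 ± 0.05, adjusted p = 0.000644). Crmp1, a collapsin response mediator of growth cones, had 3659, 3840 and 3863 against 5648, 5865 and 5811 (-0.61, adjusted p = 0.000651). Tubb3, the neuronal beta-tubulin, had 1915, 2015 and 2000 against 2999, 3200 and 3325 (-0.68, adjusted p = 0.000651). The replicates of each genotype lay close together in these genes.

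The gene of the bead antigen, Thy1, had 1425, 1426 and 1422 normalized reads in mKO against 2394, 2519 and 2208 in WT (-0.73, adjusted p = 0.000651). Median exon GC content of the list was 53.2%, and with the trends removed its median was -0.04 and limma called 0 of 26, also at an unadjusted p under 0.05 with the fold. In tissue RNA of this kind, fewer cells of a type and less RNA per cell cannot be told apart.

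Axon guidance receptors and adhesion molecules were called about as often as other genes, in both directions. Of 36 tested, Unc5c, Epha6 and Epha7 rose and Robo3, Unc5a and Boc fell, beside 7.91% and 5.51% of all genes, with a median of -0.01 (-0.10 without WT C). Epha6, an ephrin receptor used in retinal mapping, had 547, 509 and 593 normalized reads in mKO against 324, 310.5 and 237 in WT (0.93 ± 0.14, adjusted p = 0.00245). It was also called with the trends removed (0.68, adjusted p = 0.0359). Unc5c, a netrin receptor for repulsion, had 2033, 1748 and 2081 against 1322, 1340 and 798 (0.80, adjusted p = 0.0192), with WT C the lowest.

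The falls in this list were not called with the trends removed. Unc5a, a netrin receptor of the same family, had 578, 552 and 606 normalized reads in mKO against 1112, 1057 and 892 in WT (-0.81, adjusted p = 0.0011), and -0.27 with the trends removed. Robo3, a receptor that lets axons cross the midline, had 120.4, 156 and 129 against 243, 223 and 369.9 (-1.01, adjusted p = 0.00977). Boc, a Sonic hedgehog receptor of ipsilateral RGC axons, had 124, 87.6 and 79.0 against 157, 215 and 158 (-0.87, adjusted p = 0.0189). The netrin receptors moved in opposite directions, Unc5a with no overlap below WT and Unc5c with no overlap above it.

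**Figure D1:**
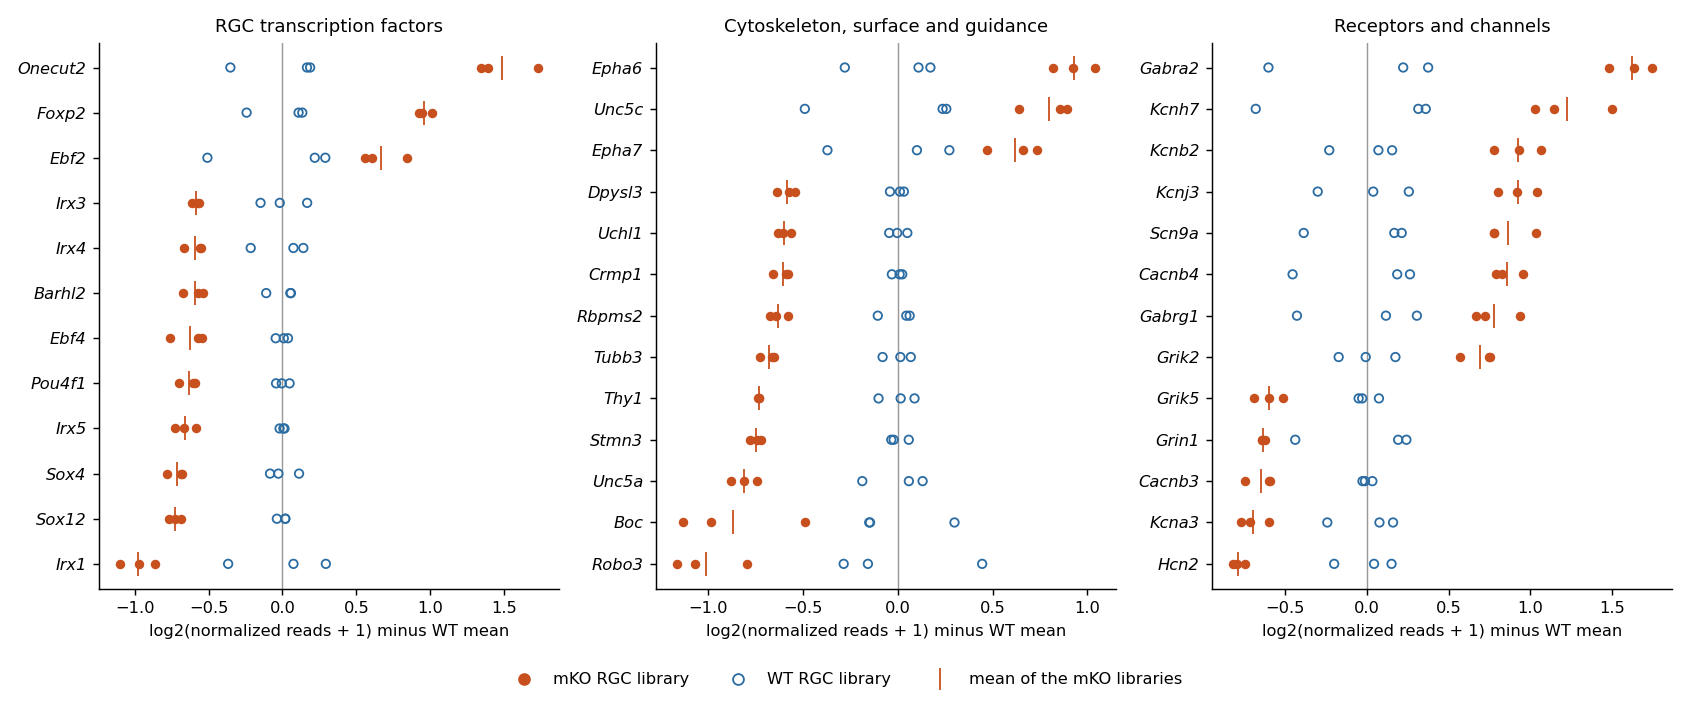
Called members, those named in the text, of the lists of RGC transcription factors, of cytoskeletal, surface and guidance genes, and of receptor and channel subunits. The x axis is log2(normalized reads + 1) minus the mean of the WT libraries, filled points are the 3 mKO RGC libraries, open points the 3 WT RGC libraries and vertical bars the mKO means. The falls cluster between about -0.59 and -1.01, and 1 WT library lies well below the other WT libraries in several of the rises, such as Gabra2 and Kcnh7.

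GABA and glycine receptor subunits leaned towards higher values in mKO RGCs. Of 18 tested, 3 were called higher, among them Gabra2 and Gabrg1, and none lower, 16 were above 0 and 2 below, beside 49.8% and 50.2% of all genes, and the median was 0.43. Gabra2, a subunit of the GABA-A receptor, had 885, 1060 and 986 normalized reads in mKO against 412, 370.2 and 209 in WT, well separated (1.62 ± 0.24, adjusted p = 0.00272). Its difference was 1.09 with the trends removed (adjusted p = 0.0578). Gabrg1 had 331, 275 and 286 against 188, 214 and 128 (0.78, adjusted p = 0.0203).

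WT C was the lowest WT library in both of these subunits, and without it 1 rise and 1 fall were called in the list. The metabotropic receptors Gabbr1 (-0.47, adjusted p = 0.00117) and Gabbr2 (-0.48, adjusted p = 0.0432) passed the adjusted p on the lower side without the fold. The median exon GC content of the list was 42.2%, its median with the trends removed was 0.09, and limma then called 0 members, with 1 at an unadjusted p under 0.05 and the fold. The summed level of the list in mKO, 17714 to 17977 normalized reads, lay within the WT range of 14749 to 20234.

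Glutamate receptor subunits showed 1 rise and 2 falls among 22, beside 7.91% and 5.51% of all genes, with a median of 0.14. That median turned to -0.09 without WT C, where 1 rise and 3 falls were called. Grik2, a kainate receptor subunit, had 668, 590.1 and 666 normalized reads in mKO against 395, 448 and 352 in WT (0.69, adjusted p = 0.00309). Grik5, its partner subunit, moved the other way, with 2009, 2140 and 2274 against 3407, 3173 and 3126 (-0.60, adjusted p = 0.000946). Grin1, the obligatory subunit of NMDA receptors, had 1009, 1010 and 1022 against 1857, 1793 and 1160 (-0.63, adjusted p = 0.0255). The WT libraries A and B were far above mKO in Grin1 and WT C was close to it. With the trends removed the differences of these 3 genes were 0.04, -0.01 and -0.33.

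Among 21 sodium and calcium channel genes, Scn9a and Cacnb4 rose and 2 fell, among them Cacnb3, beside 7.91% and 5.51% of all genes. The list's median was 0.00 (-0.21 without WT C). Scn9a, a pore-forming sodium channel subunit, had 2338, 2341 and 2801 normalized reads in mKO against 1585, 1536 and 1047 in WT (0.86, adjusted p = 0.00687). Cacnb3, an auxiliary subunit of calcium channels, had 1831, 2040 and 2028 against 3142, 3014 and 3045 (-0.64, adjusted p = 0.000674). Cacnb4 differed by 0.86 (adjusted p = 0.0105). Limma called 0 of these 21 genes with the trends removed, also at an unadjusted p under 0.05 with the fold.

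Of 33 potassium and HCN channel genes, Kcnb2, Kcnh7 and Kcnj3 rose and Kcna3 and Hcn2 fell, beside 7.91% and 5.51% of all genes, with a median of 0.20. WT C moved this balance, and without it the median was -0.01 and 4 rises and 6 falls were called. Kcnb2, a delayed rectifier, had 530.5, 476 and 582 normalized reads in mKO against 292, 309 and 237 in WT (0.92, adjusted p = 0.00207). Hcn2, a pacemaker channel, had 558, 549.5 and 577 against 1074, 998 and 843 (-0.78, adjusted p = 0.0013). Kcnh7 differed by 1.22 (adjusted p = 0.0138) and was 0.88 without WT C, which was its lowest library. Each group in these 5 genes was separate from the other. None of the 5 was called with the trends removed, Kcnb2 being at 0.31 and Hcn2 at -0.18.

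Genes of synaptic vesicles and transmitter release were more often lower. Of 35 tested, Syp, Rab3a, Sncb, Slc17a7, Nrxn2 and Nlgn2 fell, Sypl rose, and the median was -0.29. Nlgn2, an adhesion protein of inhibitory synapses, had 3189, 3321 and 3328 normalized reads in mKO against 5652, 5826 and 5206 in WT (-0.76, adjusted p = 0.000644). Rab3a, a GTPase of vesicle docking, had 1202, 1228 and 1250 against 1979, 2069 and 1975 (-0.71, adjusted p = 0.000644). Syp, the vesicle protein synaptophysin, had 1252, 1356 and 1340 against 2005, 2090 and 2025 (-0.63, adjusted p = 0.000651).

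Sypl, a synaptophysin-like protein found also outside neurons, went the other way, with 614, 569.8 and 556 normalized reads against 327, 334 and 361 (0.77, adjusted p = 0.000866). Sncb, the beta-synuclein gene, showed the largest fall of the list, with 750.4, 740.4 and 736 against 1519, 1555 and 1208 (-0.93, adjusted p = 0.000918). With any fold, 19 members passed the adjusted p below WT and 3 above it, beside 21.2% and 16.3% of all genes. With the trends removed the median was 0.04 and limma called 0 of the 35, also at an unadjusted p under 0.05 with the fold, and without WT C 10 members were called lower.

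**Figure D2:**
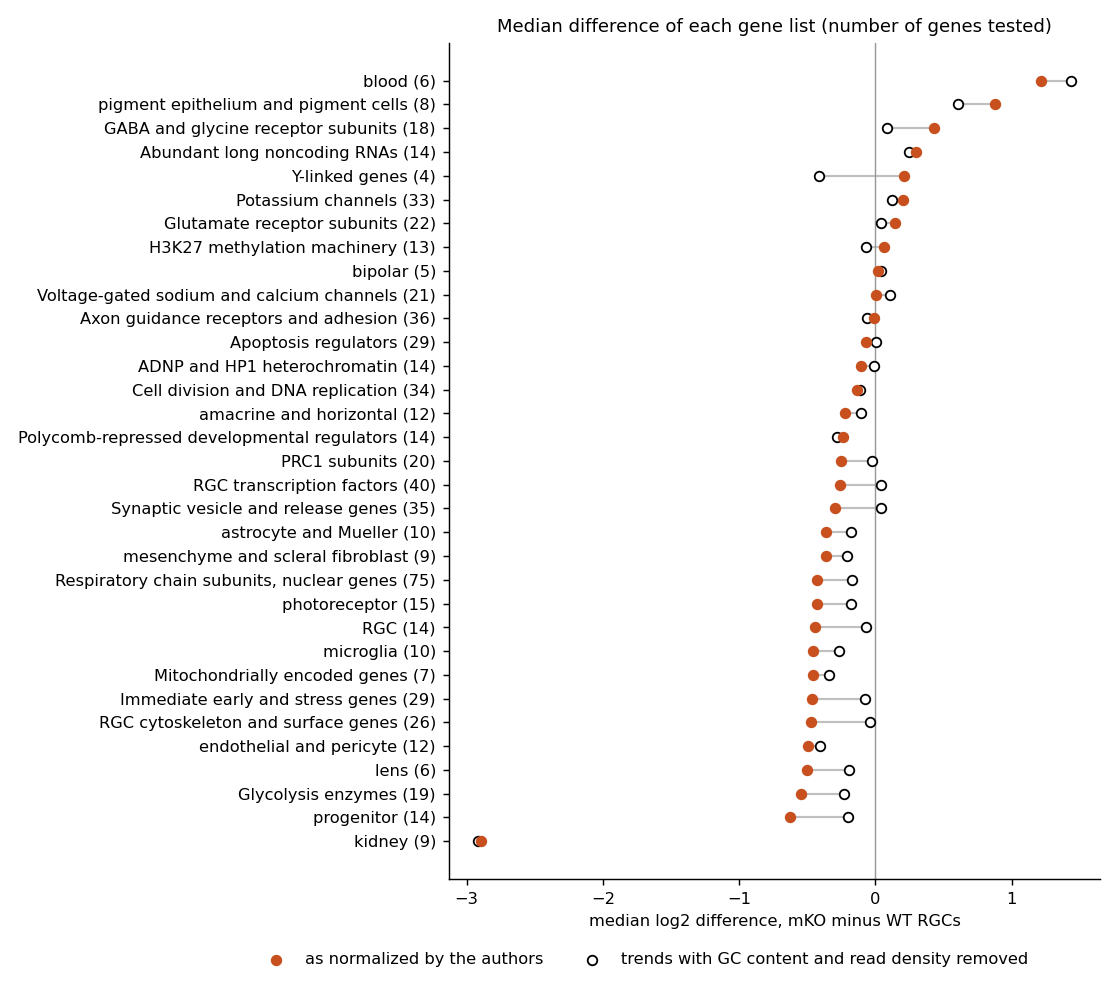
Median difference of each gene list and marker list, mKO minus WT RGCs, on the log2(normalized reads + 1) scale, with the number of members tested in brackets. Filled points are values as normalized by the authors and open points are values with the trends with exon GC content and read density removed. The list of cytoskeletal and surface genes moved from -0.47 to -0.04 and that of glycolysis from -0.55 to -0.23, while the kidney list was at -2.89 and -2.91 and the blood list at 1.22 and 1.43.

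Subunits of the respiratory chain were lower in mKO RGCs almost throughout. Of 75 nuclear genes tested, 11 were called lower and none higher, beside 5.51% and 7.91% of all genes. With any fold, 59 passed the adjusted p on the lower side, beside 21.2% of all genes. In 65 of the 75 every mKO library was below every WT library, beside 28.2% of all genes. The median was -0.43 and the summed level was 39007 to 40676 normalized reads in mKO against 50986 to 56588 in WT.

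Cox5a, a nuclear subunit of cytochrome c oxidase, had 239.9, 241 and 251 normalized reads in mKO against 457, 452 and 494 in WT (-0.93 ± 0.08, adjusted p = 0.000651). It was also called with the trends removed (-1.23, adjusted p = 0.00455). Cox8a, another subunit of that complex, had 318, 334 and 326 against 567, 567 and 623 (-0.84, adjusted p = 0.000657), and Cox6a1 had 442, 469 and 455 against 763, 768 and 834 (-0.79, adjusted p = 0.000651). Atp5d, a subunit of ATP synthase, had 645, 692 and 681 against 1135, 1133 and 1192 (-0.78, adjusted p = 0.000644).

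The other called members were Ndufb6, Ndufs5 and Ndufs7 of complex I, Uqcrq and Cyc1 of complex III, and Atp5g2 and Atp5g3 of ATP synthase, with differences from -0.59 to -0.75. With the trends removed the median was -0.17 and 3 members were called lower, namely Cox5a, Atp5g3 (-0.61, adjusted p = 0.0072) and Atp5f1 (-0.65, adjusted p = 0.00567). Without WT C, 8 were called lower as normalized by the authors.

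Genes of the mitochondrial genome lay below WT without reaching the fold. Of 13, 7 reached the level for testing and 5 had no read in any RGC library. Limma called 0 at the fold of 1.5, while all 7 were lower at the adjusted p with any fold (differences from -0.51 to -0.30), and in all 7 the libraries did not overlap. mt-Nd5, a complex I subunit, had 2025, 2153 and 2194 normalized reads in mKO against 2821, 2883 and 2846 in WT (-0.42, adjusted p = 0.00127). mt-Cytb, of complex III, had 1529, 1600 and 1617 against 2062, 2190 and 2272 (-0.46, adjusted p = 0.00142). Their exon GC content was low, with a median of 37.1%, and the list's median with the trends removed was -0.34.

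Glycolysis enzymes were lower as well. Of 19 tested, 8 fell (Aldoa, Tpi1, Gapdh, Pgam1, Eno1, Pkm, Ldha and the glucose transporter Slc2a1) and none rose. With any fold, 16 passed the adjusted p on the lower side, beside 21.2% of all genes. Aldoa, a fructose bisphosphate aldolase, had 1311, 1425 and 1379 normalized reads in mKO against 2123, 2220 and 2277 in WT (-0.69, adjusted p = 0.000651). Pkm, pyruvate kinase, had 2065, 2147 and 2140 against 3256, 3360 and 3731 (-0.70, adjusted p = 0.000661). Eno1, enolase, had 762, 810.5 and 855 against 1222, 1279 and 1392 (-0.68, adjusted p = 0.000927). No library of either genotype crossed into the other's range.

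Pgam1, phosphoglycerate mutase, was also called with the trends removed. It had 188, 189 and 187 normalized reads in mKO against 323, 317 and 337 in WT (-0.79, adjusted p = 0.000966), and -0.66 with the trends removed (adjusted p = 0.0126). The list's median was -0.55, and -0.23 with the trends removed.

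Regulators of apoptosis included 3 falls and no rise among 29 tested, beside 5.51% and 7.91% of all genes, with a median of -0.07. Without WT C, 2 members were called higher, Bcl2 (0.64, adjusted p = 0.000277) and Pmaip1 (1.51, adjusted p = 0.0212), and the median turned to 0.06. Bbc3 (Puma), a BH3-only activator of cell death, had 684, 689.7 and 653 normalized reads in mKO against 1472, 1418 and 1365 in WT (-1.07 ± 0.06, adjusted p = 0.000644). The effector Bax, which RGCs need to die, had 447, 476 and 451 against 722, 713 and 804 (-0.70, adjusted p = 0.000891). The related effector Bak1 had 364, 366 and 325 against 601, 587 and 560.2 (-0.73, adjusted p = 0.000946). The genotypes were apart in all 3.

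Inhibitors of apoptosis lay on both sides. Bcl2 differed by 0.48 (adjusted p = 0.0369) and Xiap by 0.42 (adjusted p = 0.00181), while Bcl2l1 differed by -0.38 (adjusted p = 0.0026), none at the fold of 1.5. Bbc3 was -0.44 with the trends removed (adjusted p = 0.0159), where limma called 0 of the list, also at an unadjusted p under 0.05 with the fold.

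Several immediate early genes were lower in mKO RGCs. Of 29 immediate early and stress genes, Fos, Fosb, Junb, Jund, Egr1, Ier2 and Klf2 fell and none rose. With any fold, 12 passed the adjusted p on the lower side, beside 21.2% of all genes. Of the 29, 8 lay above 0, and the median was -0.46. Fos had 1866, 1894 and 1901 normalized reads in mKO against 2821, 2966 and 3210 in WT (-0.67, adjusted p = 0.000657). Jund, another AP-1 subunit, had 873, 929 and 867 against 1479, 1538 and 1833 (-0.86, adjusted p = 0.000873). Egr1, an activity-induced zinc finger factor, had 1985, 2112 and 1928 against 2962, 3543 and 3855 (-0.77, adjusted p = 0.00157).

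Klf2 had the widest difference of the list (-1.50, adjusted p = 0.0158), with 149, 115 and 69.6 normalized reads against 199.7, 319 and 436. Median exon GC content of the list was 54.6%, and with the trends removed its median was -0.08 and none of these 7 was called. Gadd45b, a stress-induced gene, was the single member called there, as a rise (0.63, adjusted p = 0.0184), and as normalized by the authors it was at 0.24 (adjusted p = 0.0831).

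Genes of cell division showed 3 rises (Cenpe, Cenpf, Ccne2) and 1 fall (Ccnd1) among 34, beside 7.91% and 5.51% of all genes. The list's median was -0.13. Cenpe, a kinetochore motor, had 1624, 1546 and 1428 normalized reads in mKO against 795, 792 and 1295 in WT (0.71, adjusted p = 0.0231). Ccnd1, the cyclin of retinal progenitors, had 2403, 2701 and 2415 against 3413, 3538 and 5200 (-0.67, adjusted p = 0.0157). WT C was the highest WT library in both, and without it 5 members were called higher and none lower in limma, and the median was 0.15.

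Long noncoding RNAs rose in part. Of 14 tested, Neat1, Xist, Jpx, Ftx and Rmst were called higher and none lower, with a median of 0.30. Rmst, a noncoding RNA of neural progenitors, had 176, 186 and 236 normalized reads in mKO against 109, 95.5 and 78.2 in WT (1.07, adjusted p = 0.00434). Ftx, from the X inactivation centre, had 259, 231 and 349 against 144, 122 and 146 (1.00, adjusted p = 0.00494). Neat1, the scaffold of paraspeckles, had 37.5, 43.3 and 63.0 against 22.3, 25.0 and 22.2 (0.99, adjusted p = 0.0211). Limma called 0 of the list with the trends removed, with 4 higher at an unadjusted p under 0.05 and the fold.

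Xist, the RNA that coats the inactive X chromosome of females, had 4909, 4643 and 7160 normalized reads in mKO against 1195, 3465 and 2108 in WT (1.41, adjusted p = 0.0222). All 4 Y-linked genes tested had reads in every RGC library. Ddx3y had 464, 586 and 567 in mKO against 554, 207 and 568 in WT, and WT B was also the lowest in Eif2s3y (192), Kdm5d (137) and Uty (80.3). Limma called 0 of the 4 Y-linked genes, also at an unadjusted p under 0.05. The sexes of the pups are not given in the labels, and the part of sex in these differences was not tested.

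Other cell types contributed RNA to the bead fraction, and most of their markers were lower or level in mKO. All marker lists had reads in every library. The 14 RGC markers summed to 29270 to 30609 normalized reads in mKO and 38679 to 42869 in WT, and 3 of them were called lower and none higher. Progenitor markers summed to 17044 to 17454 in mKO and 21984 to 32723 in WT, and amacrine and horizontal markers to 10223 to 11110 and 11401 to 13476. These sums do not compare levels between genes of different length, so they describe each list across libraries only.

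**Figure D3:**
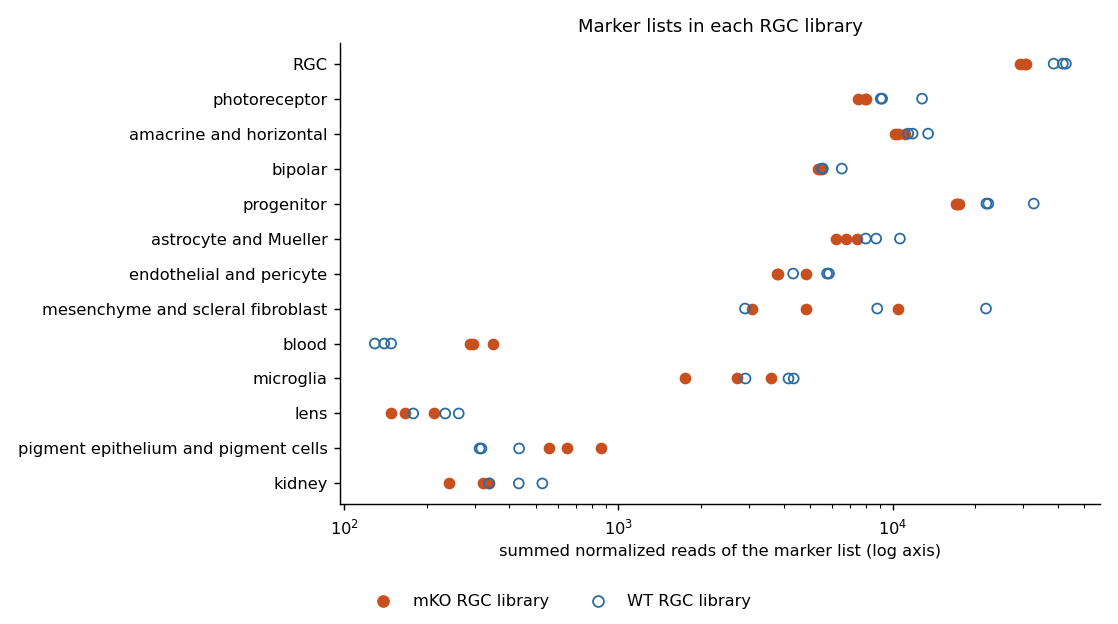
Summed normalized reads of each marker list in each RGC library, on a log axis, with filled points for the 3 mKO libraries and open points for the 3 WT libraries. The mKO libraries lie below WT for RGC, photoreceptor and progenitor markers, above WT for blood and pigment markers, and within a wide common range for mesenchyme markers.

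Several rod photoreceptor genes were lower in mKO. Of 15 photoreceptor markers, 5 fell, among them Crx, Nrl, Nr2e3 and Pde6b, and none rose, with a median of -0.43, and the list summed to 7488 to 8016 normalized reads in mKO against 9051 to 12806 in WT. Nrl, the leucine zipper factor that sets rod fate, had 569.8, 576 and 446 in mKO against 806, 828 and 1161 in WT (-0.80, adjusted p = 0.00931; with the trends removed -0.69, adjusted p = 0.0455). Crx, the homeobox factor of all photoreceptors, had 1277, 1246 and 1189 against 1672, 1717 and 2303 (-0.60, adjusted p = 0.00867), but with the trends removed it was -0.31 (adjusted p = 0.166). WT C was the highest library in both.

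Pde6b and Cngb1, which serve phototransduction, fell further, while 4 of the 15 photoreceptor markers lay above 0 (highest 0.73). Pde6b, the rod phosphodiesterase, had 149, 159 and 117 normalized reads in mKO against 278, 256 and 295 in WT (-0.97 ± 0.15, adjusted p = 0.00274). Cngb1, a subunit of the rod channel, had 113, 118 and 101 against 208, 280.1 and 228 (-1.10 ± 0.15, adjusted p = 0.00197).

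Rd3, which restrains guanylate cyclase in photoreceptors, had 174, 148 and 119 against 227, 266 and 350.1 (-0.93 ± 0.20, adjusted p = 0.012). Pde6b, Cngb1 and Rd3 were among the 15 falls of highest rank described below. A call in both fits and no overlap between libraries were conditions of that choice. With the trends removed these 3 genes were at -1.10, -0.96 and -0.96. Cngb1 and Rd3 are not members of the photoreceptor list. Without WT C, 4 of the 15 markers were called lower and 2 higher, Gnat2 (0.63, adjusted p = 0.00747) and Thrb (0.86, adjusted p = 8.28e-05), and the median was -0.27.

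Because several rod genes fell, the 250 bases before the start of 6 of them (Crx, Nrl, Nr2e3, Pde6b, Cngb1 and Rd3) were searched. The search covered both strands of the RefSeq promoters of GRCm38.p6 for TAATCC, the core that Crx binds. Crx and Cngb1 held the motif, shown here in capitals (in Crx as its reverse complement).
Crx, chr7:15879956-15880205, minus strand: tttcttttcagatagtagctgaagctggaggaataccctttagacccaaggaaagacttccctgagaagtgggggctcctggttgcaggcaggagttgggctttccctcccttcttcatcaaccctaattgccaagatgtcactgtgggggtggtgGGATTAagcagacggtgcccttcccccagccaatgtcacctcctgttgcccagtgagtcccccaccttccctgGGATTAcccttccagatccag
Cngb1, chr8:95306586-95306835, minus strand: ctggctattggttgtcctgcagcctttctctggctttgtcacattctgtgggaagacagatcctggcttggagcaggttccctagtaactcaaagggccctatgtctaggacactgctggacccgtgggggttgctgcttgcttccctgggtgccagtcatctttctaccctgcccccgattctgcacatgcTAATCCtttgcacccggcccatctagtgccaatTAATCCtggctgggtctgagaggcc
The matches begin 94 and 21 bases before the start of Crx and 58 and 25 bases before that of Cngb1. Of all 32851 promoter windows of the same length, 2054 held the motif (6.25%). A match describes the letters of the window and shows no binding.

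Progenitor markers were lower too. Of 14, 6 fell, among them Hes5, Notch1, Ccnd1, Lhx2 and Rax, and none rose, with a median of -0.63. Rax, a homeobox factor of the early eye field, had 518, 530.2 and 499.7 normalized reads in mKO against 849, 868 and 1145 in WT (-0.87, adjusted p = 0.00194), and it was also called with the trends removed (-0.74, adjusted p = 0.0167). Notch1, the receptor that keeps progenitors undifferentiated, had 3474, 3236 and 3353 against 4883, 5322 and 6995 (-0.76, adjusted p = 0.0043). Hes5, a target of Notch, had 303, 301 and 269 against 463, 429 and 644 (-0.79, adjusted p = 0.00795). WT C was the highest in these genes and in Lhx2 (2649 against 1584 and 1587), and without it 3 members were called lower and the median was -0.39. With the trends removed the list's median was -0.20 and Rax was the single call. There Notch1 was at -0.36 (adjusted p = 0.131) and Hes5 at -0.21 (adjusted p = 0.416).

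Some markers of inhibitory interneurons and glia fell. Of 12 amacrine and horizontal cell markers 2 fell, beside 5.51% of all genes, and none rose. Slc32a1, the vesicular transporter of GABA and glycine, had 282, 290.4 and 299 normalized reads in mKO against 475, 522 and 615 in WT (-0.88, adjusted p = 0.00133). Slc6a9, the glycine transporter, had 214, 204 and 231 against 416, 379 and 383 (-0.86, adjusted p = 0.000946) and was also called with the trends removed (-0.61, adjusted p = 0.0206). Of 10 astrocyte and Müller cell markers, Pax2 (-0.66), Vim (-0.63) and Apoe (-0.73) fell, beside 5.51% of all genes, and none rose. With the trends removed these 3 were at -0.37, -0.49 and -0.20, and limma called 0 of the list. Limma called 0 of 5 bipolar cell markers, also at an unadjusted p under 0.05. Isl1 was among their most abundant members.

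Vessels, connective tissue and microglia varied between libraries of one genotype. Of 12 endothelial and pericyte markers, Pdgfrb, the platelet-derived growth factor receptor of pericytes, was lower, with 175, 107 and 121 normalized reads in mKO against 194, 330.0 and 207 in WT (-0.84, adjusted p = 0.0405). The 9 mesenchyme markers summed to 3065 to 10430 in mKO and 2894 to 21914 in WT, and Col3a1 alone ranged from 229.6 to 2403 in mKO and from 77.0 to 5085 in WT. The 10 microglia markers summed to 1754 to 3595 and 2907 to 4359. Csf1r, the receptor microglia need to survive, had 986, 695 and 474 in mKO against 877, 1285 and 1134 in WT (-0.66, adjusted p = 0.0904). Limma called 0 genes of the mesenchyme, microglia and lens lists, and the genotypes overlapped in the sum of each. Without WT C the collagen genes Col6a1 (-0.59) and Col6a2 (-0.83) of the mesenchyme list were called lower.

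Blood and pigment markers were the marker lists with called rises. Of 6 blood markers tested, Hba-a1, Hba-a2, Hbb-bs, Hbb-bt and Alas2 rose, all 5 were also called with the trends removed, and the median was 1.22 (1.43 with the trends removed). Hbb-bt, a beta-globin, had 66.3, 47.0 and 50.8 normalized reads in mKO against 22.3, 14.1 and 16.3 in WT (1.59 ± 0.26, adjusted p = 0.00389). Hba-a1, an alpha-globin, had 55.0, 51.6 and 52.7 against 26.4, 26.1 and 21.0 (1.09 ± 0.20, adjusted p = 0.00583). The globin genes come in near-identical pairs, so the split of reads within a pair is uncertain.

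Alas2, the first enzyme of haem synthesis in red cells, had 56.7, 24.9 and 29.2 normalized reads against 12.2, 11.9 and 10.5 (1.51, adjusted p = 0.0141). The blood markers summed to 287 to 350 in mKO and 129 to 148 in WT. The other tested member, Slc4a1, an anion exchanger of red cells, was at -1.63 (adjusted p = 0.149), and the 3 untested members had at most 2 reads in each library.

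Of 8 pigment cell markers tested, Tyr, Dct and Pmel rose and none fell, with sums of 556 to 861 in mKO and 312 to 434 in WT, and 5 rose without WT C. Pmel, the matrix protein of melanosomes, had 336, 282 and 225 normalized reads in mKO against 104, 97.7 and 163 in WT (1.22 ± 0.24, adjusted p = 0.00725; with the trends removed 1.39, adjusted p = 0.0227). Tyr, tyrosinase, had 41.0, 24.0 and 26.3 against 7.10, 3.26 and 11.7 (2.01, adjusted p = 0.013), and Dct, the next melanin enzyme, had 205, 136 and 119 against 57.8, 66.2 and 102 (1.02, adjusted p = 0.0277). Tyr and Dct were not called with the trends removed.

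Kidney genes, which retina does not normally use, were at low levels in both genotypes, and some were lower still in mKO. The list summed to 242 to 338 normalized reads in mKO and 338 to 528 in WT. Of 18 members 9 were tested, none rose (0 at an unadjusted p under 0.05 in limma), and 5 fell, among them Umod, Kap, Slc34a1 and Pck1, with or without the trends. Pck1, which starts the making of glucose in liver and kidney, had 0.873, 1.84 and 4.71 normalized reads in mKO against 13.2, 42.3 and 31.5 in WT (-3.12, adjusted p = 0.00598). Slc34a1, the phosphate transporter of the proximal tubule, was at most 1 read in each mKO library and had 10.1, 8.68 and 12.8 in WT. With a floor of 3 reads per library in mKO it was at least 3.86-fold lower. The same genes were lower in the non-RGC fraction, where Pck1 differed by -4.42 (adjusted p = 0.00855).

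Of the 44 called list members that depended on 1 library, 20 were lost without WT C, among them Phc2, Ebf2, Uchl1, Dpysl3, Unc5c, Epha7, Gabrg1, Ndufb6, Cyc1, Atp5g3, Tpi1, Gapdh, Slc2a1, Ccnd1, Ier2, Crx, Lhx2 and Vim. Without WT C all 20 stayed under an adjusted p of 0.05, the highest being 0.0104 (Ebf2), and lay under the fold of 1.5, with sizes from 0.41 (Ebf2) to -0.58 (Dpysl3). The other 24 were lost without at least 1 of the other RGC libraries, among them Phf1, Pax7, Ebf4, Irx3, Irx4, Barhl2, Crmp1, Boc, Grik5, Grin1, Kcnh7, Cenpe, Cenpf, Ccne2, Neat1, Xist, Jpx, Nr2e3, Pax2, Pdgfrb, Tyr and Dct. Their direction was the same without each library, and Cenpe and Cenpf were farther from WT without WT C (0.95 and 0.91).

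The genes called in both fits, 101 higher and 74 lower, passed the test as normalized by the authors and with the trends removed. Of them, 57 rises and 62 falls had a mean of at least 50 normalized reads in the higher genotype and no overlap between libraries, and 20 of these rises and 5 of these falls had names of predicted genes or pseudogenes, which were left out of the ranking. Median exon GC content was 47.7% for the 101 rises and 50.7% for the 74 falls. The calls with the trends removed depended on single libraries: without WT C there were 343 rises and 213 falls, and without any 1 of the mKO libraries 0 rises and 0 or 1 fall in limma, with 361 to 583 rises and 226 to 310 falls at an unadjusted p under 0.05 with the fold. Of the 30 genes named by rank from both fits, 27 to 30 kept the call as normalized by the authors without each library in turn, and all 30 kept their direction. With the trends removed, 0 or 1 of the 30 kept the call without any 1 of the mKO libraries, 10 without WT A, 8 without WT B and 30 without WT C, with the direction kept in all.

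Zbtb20, a zinc finger repressor of neural progenitors and glia, showed the largest difference among the 15 rises. It had 1619, 1422 and 2090 normalized reads in mKO against 342, 533 and 365 in WT (2.06 ± 0.20, adjusted p = 0.000765; with the trends removed 1.61). A2m, a secreted protease inhibitor, had 294, 338 and 319 against 73.0, 68.4 and 116 (1.91 ± 0.21, adjusted p = 0.000946; with the trends removed 1.63). Wdfy1, an endosomal adaptor of Toll-like receptors, had 1515, 1567 and 1612 against 689, 659 and 515 (1.34 ± 0.11, adjusted p = 0.000651; with the trends removed 1.24). In none of the 3 did a library of one genotype enter the range of the other.

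Some rises came from the X chromosome. Cdr1, known for its circular antisense transcript in neurons, had 136, 207 and 247 normalized reads in mKO against 57.8, 59.7 and 29.2 in WT (2.01 ± 0.34, adjusted p = 0.00423). The kit did not mark strand, so its reads cannot be told apart from those of that antisense transcript. Irs4, an insulin receptor substrate, had 66.3, 32.3 and 66.8 against 12.2, 15.2 and 19.8 (1.70 ± 0.35, adjusted p = 0.00957). Zxdb, a zinc finger gene, had 237, 221 and 257 against 114, 116 and 92.2 (1.15 ± 0.14, adjusted p = 0.00125).

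The remaining rises named by rank lay on other chromosomes or share reads with copies. Aph1c, a gamma-secretase subunit, had 112, 126 and 110.1 normalized reads against 43.6, 29.3 and 31.5 (1.73 ± 0.20, adjusted p = 0.00117). Efcab5, an EF-hand gene, had 89.0, 107 and 111 against 40.5, 34.7 and 29.2 (1.53 ± 0.20, adjusted p = 0.00161). Tchh, which encodes trichohyalin, had 47.1, 55.3 and 48.0 against 22.3, 32.6 and 18.7 (1.04 ± 0.26, adjusted p = 0.0189).

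Vcp-rs (1.47), a processed pseudogene in the annotation, is a related sequence of Vcp, so how its reads were divided from that gene is uncertain. Onecut2, Pmel, Hbb-bt and Hba-a1, given above, were also among the 15 rises. No overlap between libraries was a condition of this choice.

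Among the falls, the POU factor Pou3f3 (Brn1), used in neuronal progenitors and amacrine cells, had 73.3, 72.8 and 48.0 normalized reads in mKO against 150.0, 177 and 235 in WT (-1.52 ± 0.24, adjusted p = 0.00332). Galnt2, which starts O-linked glycosylation, had 18.3, 19.4 and 21.6 against 62.8, 67.3 and 64.2 (-1.67 ± 0.19, adjusted p = 0.00108). Glcci1, a glucocorticoid-induced gene, had 147, 145 and 163 against 337, 428 and 518 (-1.47 ± 0.16, adjusted p = 0.00098). These 3 were at -1.53, -1.48 and -1.79 with the trends removed.

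Bloc1s1, a subunit of a complex for lysosome-related organelles, had 33.2, 30.4 and 30.1 normalized reads in mKO against 77.0, 70.6 and 96.9 in WT (-1.34 ± 0.20, adjusted p = 0.00247). Rhbdl1, a rhomboid protease, had 13.96, 19.4 and 19.8 against 47.6, 56.5 and 59.5 (-1.58 ± 0.24, adjusted p = 0.00268). Bri3, a small membrane protein of lysosomes, had 219, 238 and 212 against 522, 505 and 633 (-1.30 ± 0.11, adjusted p = 0.000651). The mKO libraries of these genes were within a narrow range.

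Cox16, an assembly factor of cytochrome c oxidase, had 50.6, 47.0 and 51.8 normalized reads against 92.2, 85.8 and 106 (-0.91 ± 0.17, adjusted p = 0.00564; with the trends removed -1.58). Gng10, a G protein gamma subunit, had 27.9, 35.0 and 28.2 against 55.7, 66.2 and 51.3 (-0.90 ± 0.21, adjusted p = 0.014). Cox5a and Cox16 both serve the same respiratory complex. Without 1 library in turn, adjusted p rose to 0.0558 for Gng10 and 0.0774 for Tchh.

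**Figure D4:**
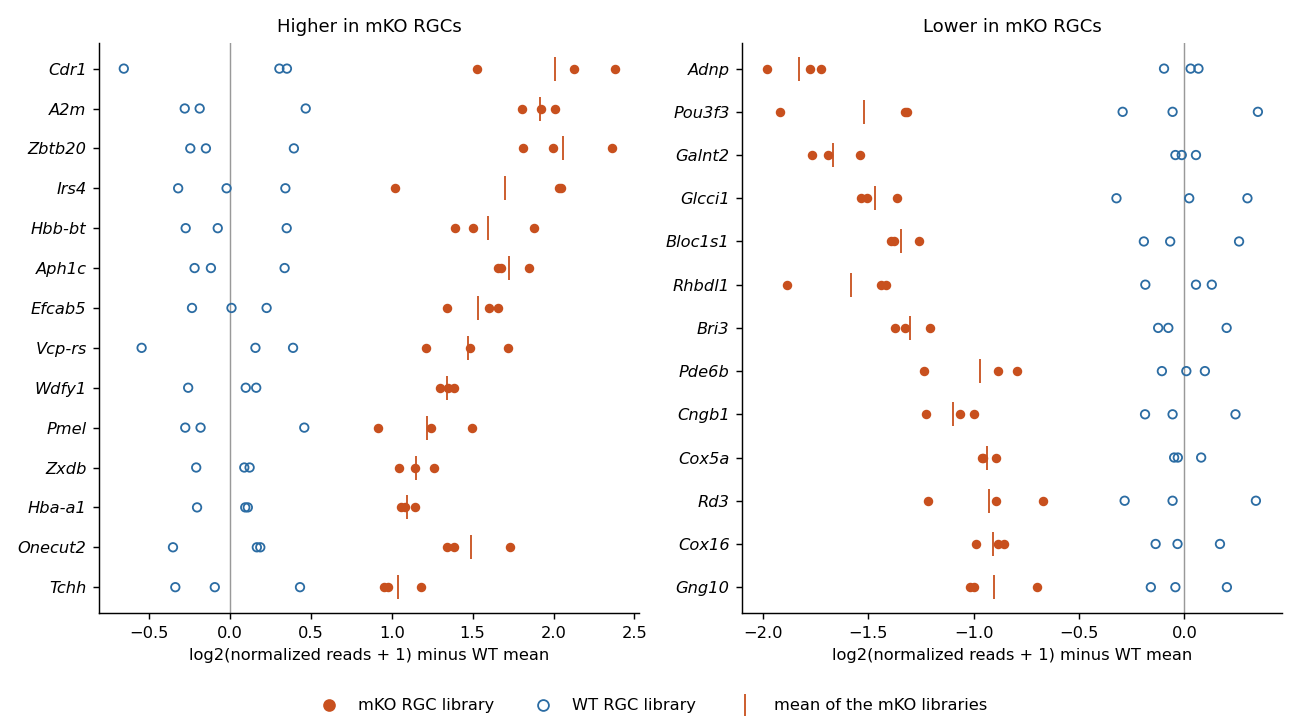
Plotted are 14 of the 15 rises and 13 of the 15 falls of highest rank among genes called both as normalized by the authors and with the trends removed. The x axis is log2(normalized reads + 1) minus the mean of the WT libraries, filled points are the mKO RGC libraries, open points the WT RGC libraries and vertical bars the mKO means. Rises run from 1.04 (Tchh) to 2.06 (Zbtb20), and falls from -0.90 (Gng10) to -1.83 (Adnp).

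Whether a genotype difference was particular to RGCs was tested by the difference between the contrasts of the bead fraction and of the non-RGC fraction, over all 12 libraries. Limma called 16 genes (0.0995% of those tested), all lower in the RGC contrast than in the non-RGC contrast, and 0 in the other direction (1091 genes against 486 at an unadjusted p under 0.05). Of the 16, 12 were lower in every mKO RGC library than in any WT RGC library, beside 28.2% of all genes. All 16 were higher in every mKO non-RGC library than in any WT non-RGC library. The like share for non-RGCs is not given here. The 16 were chosen by the difference of contrasts in these same libraries, which favours both separations, so these counts add no support. With the trends removed 3 were called, Thy1, Sncg and Ebf1. Without mKO non-RGC library A 225 genes were called, and without each of the other libraries 7 to 32.

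Several of these genes are used as markers of RGCs. Sncg, the gamma-synuclein of RGCs, had 881, 901 and 884 normalized reads in mKO RGCs against 1275, 1332 and 1378 in WT RGCs, but 247, 316 and 398 in mKO non-RGCs against 108, 89.0 and 107 in WT non-RGCs. The difference of the contrasts was -2.21 ± 0.22 (adjusted p = 0.00105). Ebf1, a factor of differentiating RGCs, had 3699, 3993 and 4072 in mKO RGCs against 3602, 3581 and 3129 in WT, and 381, 469 and 425 in mKO non-RGCs against 89.3, 102 and 114 in WT (-1.86 ± 0.16, adjusted p = 0.000545).

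Pou4f2 (Brn3b), the POU factor that starts RGC differentiation, was at -0.44 in RGCs and 1.72 in non-RGCs (difference -2.16 ± 0.31, adjusted p = 0.0119). The neurofilament subunits Nefl (-0.41 and 1.07) and Nefm (-0.45 and 0.60) and the vesicle protein Syt4 (-0.26 and 0.99) were arranged likewise. Thy1 was at 67.04, 79.6 and 93.2 in mKO non-RGCs against 4.51, 1.94 and 9.38 in WT, and its difference of contrasts was -4.60 ± 0.46 (adjusted p = 0.00105). How completely the beads held RGCs in each genotype was not tested. The tables of the fractions were normalized separately, so levels are not compared between them.

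**Figure D5:**
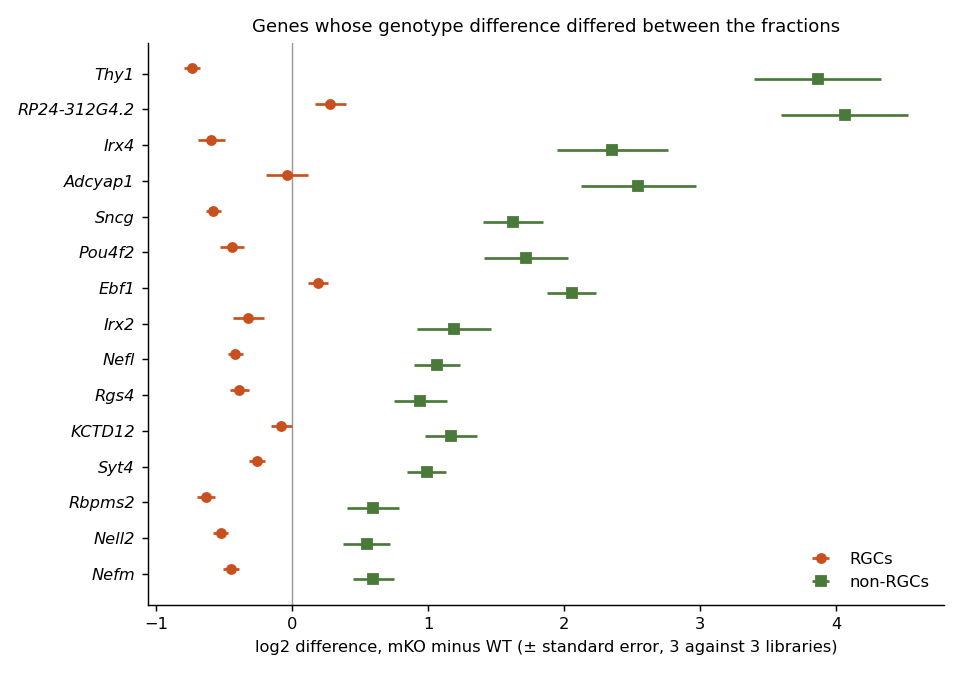
Plotted are 15 of the 16 genes whose genotype difference differed between the fractions. The x axis is the log2 difference, mKO minus WT, with its standard error from 3 against 3 libraries, circles for RGCs and squares for non-RGCs. All squares lie to the right of 0, from 0.55 (Nell2) to 4.06 (RP24-312G4.2), and the circles lie between -0.73 (Thy1) and 0.28 (RP24-312G4.2).

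Among the 175 genes called in both fits, limma called the difference of contrasts in 0, with 18 at an unadjusted p under 0.05. Over all 16085 genes, 16 (0.0995%) were called and 1577 had an unadjusted p under 0.05. Both counts lie near these shares, so they do not set the 175 genes apart from the rest. In non-RGCs, 171 of the 175 had the same direction and 75 were also called in that direction. Over the same 16085 genes the non-RGC comparison called 500 rises (3.11%) and 585 falls (3.64%). Zbtb20 was at 1.53 in non-RGCs (adjusted p = 0.026), Wdfy1 at 1.43 (adjusted p = 0.00609), Glcci1 at -2.24 (adjusted p = 0.0107) and Bri3 at -1.15 (adjusted p = 0.0228). Onecut2 was at 0.64 there (adjusted p = 0.0905) and Cox5a at -0.58 (adjusted p = 0.0956).

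Both alleles were made by gene targeting, so genes near them were counted. Within 10 Mb of Ezh2 (chromosome 6, 47530139 to 47595341), 118 genes were tested, of which 7 rose (5.93%) and 5 fell (4.24%), beside 7.91% and 5.51% of all genes. Within 10 Mb of Atoh7 (chromosome 10, 63099651 to 63101279), 100 were tested, of which 7 rose and 3 fell. In the companion fit 1 gene rose and 2 fell near Ezh2, and 1 rose and 1 fell near Atoh7. The genes near these loci that were called in both fits were the predicted gene Gm10244 near Ezh2 and Slc16a9, a carnitine transporter, near Atoh7.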

How the data were processed

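RNA of RGC and non-RGC fractions was sequenced single-end from poly-A libraries whose kit (NEBNext Ultra) did not mark strand. The authors aligned reads with STAR (2.3.1z4 per the processing notes) to mm10, counted them per gene with featureCounts and scaled them with DESeq size factors. The deposited unit is a signal, the mean of normalized counts over the 3 libraries of a group. The deposited values are labelled primary and dedup, that is, with duplicate reads removed. The part of that step in the differences was not tested. The deposited columns of the authors' comparisons (a fold ratio, its log2 value and p-values) were not used.

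The means carry 15 digits, from which each library's whole reads and size factor were recovered for every gene with a mean. The libraries, of 10600964 to 13014004 reads on genes for RGCs, were lettered by depth and carry no replicate number. Differences were tested with limma 3.58.1 (R 4.3.3, intensity trend) on log2(normalized reads + 1) of genes whose mean reached 10 in either genotype, with Benjamini-Hochberg adjustment over all of them. The fits were also run on simulated libraries, whose outcome is not quoted here. Those libraries were all drawn with the same spread. The runs therefore do not cover a library that stands apart, as WT C did. Exon GC content came from GENCODE M21 (36695 of 38720 IDs matched), and each library's trends were averages over the 300 nearest genes among those whose mean reached 50. The contrast between fractions used all 12 libraries. Python 3.11.15 with numpy 2.4.6, pandas 2.3.3, numba 0.67.0 and matplotlib 3.10.9 did the rest.

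Gene lists, marker lists and the set of genes were chosen with earlier results of these data known. Named genes were the members of the H3K27 methylation machinery, the 15 rises and 15 falls of largest difference in the weaker of both fits (called in both, mean no lower than 50 in the higher genotype, no overlap, no predicted genes), up to 4 called members of lowest adjusted p per list or else 2 of the highest mean, and Xist with the Y-linked genes. Some genes that met these rules are not reported here. Values of others in a list had been seen when they were named. The alternatives tried were other pseudocounts, filters, scalings, thresholds and trends, and each library left out.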

Additional observations from a re-analysis of the deposited data

Results flagged for a closer look

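For 16 genes the genotype difference in RGCs differed from that in non-RGCs, by limma's test of the difference between the contrasts over the 12 libraries. In 15 of them the differences of contrasts (log2, RGC minus non-RGC) were -4.60 for Thy1, -3.78 for the predicted gene RP24-312G4.2, -2.95 for Irx4, -2.58 for the neuropeptide gene Adcyap1, -2.21 for Sncg and -2.16 for Pou4f2. They were -1.86 for Ebf1, -1.51 for Irx2, -1.48 for Nefl, -1.33 for the G protein regulator Rgs4 and -1.24 for KCTD12 and for Syt4. Rbpms2 was at -1.23, the secreted protein gene Nell2 at -1.07 and Nefm at -1.05.

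Adcyap1 had 576, 514 and 529 normalized reads in mKO RGCs against 651, 600.3 and 432 in WT RGCs, with overlap, and 30.1, 23.0 and 22.6 in mKO non-RGCs against 6.32, 1.94 and 3.13 in WT non-RGCs. Irx2 had 1074, 1129 and 1128 in mKO RGCs against 1574, 1475 and 1148 in WT RGCs, where library C was close to mKO. In Nell2 every mKO RGC library was below every WT RGC library (-0.52, adjusted p = 0.000879) and every mKO non-RGC library was above every WT one (0.55, adjusted p = 0.0817).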

How the results depend on the processing

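The 1272 rises became 338 with the GC trend removed, 109 with the GC and read density trends removed, 2622 with no minimum fold, 512 at a fold of at least 2, and 762 to 1494 without 1 library. The 886 falls became 232, 135, 3405 and 101 under the same settings and 721 to 959 without 1 library. With the trends removed, the 109 rises became 65 over genes whose mean reached 50, and 0 to 343 without 1 library, while the 135 falls became 0 to 213. The highest of these counts came without WT C, except for the 886 falls, where 959 came without WT A and 927 without WT C. The lowest came without an mKO library, and the cause was not tested. The 16 genes that differed between fractions became 3 with the trends removed and 7 to 225 without 1 library, with 225 without mKO non-RGC library A and 32 without WT non-RGC library C. Calls near the Ezh2 and Atoh7 loci went from 22 to 5 with the trends removed, and called members of all lists from 123 to 28. Of 132 named genes 108 were called. All 108 kept their call with a pseudocount of 0.5, with no filter, with median centring and with TMM factors, 45 with the GC trend removed, 40 with both trends removed and 89 to 102 without 1 library, and 0 changed direction among these settings.

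No paired analysis was possible because the recovered libraries carry no replicate number. The quasi-likelihood and negative binomial count tests on recovered reads were not run. With 3 libraries a group an exact permutation test cannot go below p = 0.1, so single genes rest on the spread shared across genes. A low read count limits the precision of genes near a mean of 10, and counting error alone is covered by the floor of 3 reads.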
